A study of Mus musculus with 4 samples.

Results

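The measurements concern 1 gene, Icos, in 14875 single mouse cells sorted as regulatory T (Treg) cells. It was followed in every deposited cluster of cells and in both genotypes: its level, the share of cells in which it was seen, and the genes whose counts went with it from cell to cell. Icos was 1 of 22056 genes in the expression tables. Live CD4+ TCRβ+ cells positive for YFP, a yellow fluorescent protein, had been sorted from C57BL/6 mice and profiled with a 10x Genomics 3' kit, which reads the tail end of each transcript and counts original molecules by unique molecular identifiers (UMIs).

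The 4 libraries, 1 per group, were ICOS FC and ICOS WT spleen at steady state, and ICOS FC and ICOS WT cervical draining lymph nodes (LN) taken 1 day after oxazolone, a skin-sensitizing chemical. They held 5917 and 4995 spleen cells and 2066 and 1897 LN cells in that order. The ICOS FC mice are described as ICOS-deficient. The sources used here do not say what FC stands for, which part of the gene is altered, which cells carry the alteration, what drives YFP, or how old the mice were and how many were pooled. With 1 library per group there is no replicate, so no test was possible and no p-value is given. All intervals are 95% intervals that cover counting error only and leave out differences between mice and between cells.

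ICOS belongs to the CD28 family of costimulatory receptors. It is absent or low on resting T cells, appears after antigen receptor stimulation, binds ICOS ligand on antigen-presenting cells and signals through phosphoinositide 3-kinase (PI3K). In Treg cells it is known as a surface mark of the activated, effector part of the population, and its messenger RNA is a known target of the RNA-binding proteins Roquin and Regnase, which shorten its life.

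In the GENCODE M21 annotation of GRCm38.p6 (mm10), the build named for these data, Icos (ENSMUSG00000026009.14) lies on the plus strand of chromosome 1 from 60977927 to 61000320. It has 2 annotated transcripts with the same start: Icos-201, with 4 exons, ends at 60995797, and Icos-202, with 5 exons, ends at 61000320. A gene model on the same strand, Gm37039, lies inside Icos from 60989479 to 60991963 and was not in the tables, so its reads cannot be set apart here. The tables give 1 value per gene and cell, with no exon or transcript, and a 3' count checks nothing about a deletion elsewhere in the gene.

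Before any comparison, the genotype label itself has to be read with the level of the targeted gene. In spleen and in LN, the library labelled ICOS FC had more Icos than the library labelled ICOS WT. Since a 3' count checks nothing about a deletion elsewhere in the gene, this level cannot tell whether the labels are right. The match of the tables' words KO and Control to ICOS FC and ICOS WT was made from those words alone. For that reason every direction below is between libraries as labelled.

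In the spleen, the library labelled ICOS FC had 7284 Icos UMIs, or 258 CPM [252, 264], where CPM is UMIs of the gene per 1000000 UMIs of the library. The library labelled ICOS WT had 3040 Icos UMIs, or 112 CPM [108, 116]. In the LN, the library labelled ICOS FC had 16080 Icos UMIs, or 928 CPM [914, 942], and the library labelled ICOS WT had 9005, or 599 CPM [586, 611]. No interval overlapped another, and both LN libraries lay above both spleen libraries. Ranked by CPM, Icos was the 398th gene of the ICOS FC spleen library and the 1085th of the ICOS WT spleen library, and the 146th and 202nd gene of the ICOS FC and ICOS WT LN libraries.

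The level in the library labelled ICOS FC was 2.31-fold that in the library labelled ICOS WT in the spleen (log2 ratio 1.20 [1.14, 1.27]) and 1.55-fold in the LN (0.63 [0.60, 0.67]). Higher or lower between the labels means here a difference of at least 1.5-fold whose interval leaves out equality, in a gene with at least 20 CPM in a library. By that rule 0.588% of 5105 genes were higher in the spleen and 1.11% of 5506 genes were higher in the LN, and Icos was among them in both tissues. It ranked 9th by ratio in the spleen and 49th in the LN, where the median gene had log2 ratios of -0.02 and -0.03. The LN value lies close to the 1.5-fold line: it was 1.40-fold with all clusters given equal weight and 1.32-fold in cells with no UMI of the early genes Fos, Fosb, Egr1, Dusp1 and Ier2, so under these settings it no longer counted as higher.

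The summed level of those 5 early genes was 401 CPM in ICOS FC and 261 CPM in ICOS WT spleen, and 217 CPM in ICOS FC and 281 CPM in ICOS WT LN. They are induced by antigen receptor signals and also by handling of tissue, and their sum was higher under ICOS FC in the spleen and lower in the LN, while Icos was higher under that label in both. Fos, Fosb and Ier2 each did as the sum did, whereas Egr1 was lower under ICOS FC in both tissues (log2 ratios -0.18 and -0.61 in spleen and LN) and Dusp1 higher in both (1.06 and 0.35). In spleen cells without a UMI of these genes Icos stood at 201 CPM under ICOS FC and 102 CPM under ICOS WT, and in such LN cells at 633 and 481 CPM. Their part in the Icos difference was not tested beyond these values.

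The LN libraries were set against the spleen libraries of the same label, a comparison in which tissue and oxazolone challenge cannot be told apart and which shares its libraries with the comparison above. Icos was 3.599-fold higher in LN than in spleen under the ICOS FC label (log2 1.85 [1.81, 1.89]) and 5.35-fold higher under the ICOS WT label (2.42 [2.36, 2.48]). By a rule of 2-fold, 5.9% of 5470 genes were higher in the LN under ICOS FC and 5.33% of 5519 genes under ICOS WT, and the median gene stood at 0.13 in both. Icos ranked 91st and 47th.

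The share of cells with an Icos UMI, and the Icos UMIs in those cells, were read after every cell had been thinned at random to 2000 UMIs, since deeper cells show more genes. Median depth was 4361 and 5044 UMIs per cell in ICOS FC and ICOS WT spleen, and 6789 and 6591 in ICOS FC and ICOS WT LN. Thinning left out 155, 89, 59 and 69 shallower cells in that order of libraries. After it, 27.3% [26.1, 28.5] of ICOS FC spleen cells and 16.7% [15.7, 17.8] of ICOS WT spleen cells had an Icos UMI, and 53.2% [51.0, 55.4] of ICOS FC LN cells and 41.5% [39.2, 43.8] of ICOS WT LN cells. Without thinning, an Icos UMI was seen in 39.9% of ICOS FC and 29.9% of ICOS WT spleen cells, and in 71.0% of ICOS FC and 60.5% of ICOS WT LN cells.

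The share of cells with a UMI and the UMIs in those cells both differed. Thinned cells with Icos held on average 1.97 Icos UMIs in ICOS FC and 1.45 in ICOS WT spleen, and 3.21 in ICOS FC and 2.59 in ICOS WT LN. The thinned ratio of 2.22 in the spleen was thus the product of a 1.63-fold difference in the share of cells and a 1.36-fold difference in UMIs per cell with Icos. In the LN the thinned ratio of 1.59 was the product of 1.28 and 1.24. At so few Icos UMIs per cell the share with a UMI also grows with the level alone, so this split describes the counts and does not tell whether more cells expressed Icos or each cell more.

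Icos was spread very unevenly over cells. The 10% of cells with most Icos UMIs held 59.8% and 61.7% of all Icos UMIs in ICOS FC and ICOS WT spleen, and 50.3% and 57.8% in ICOS FC and ICOS WT LN. Cells with over 10 raw Icos UMIs made up 1.30% of ICOS FC and 0.280% of ICOS WT spleen cells, and 23.6% of ICOS FC and 13.4% of ICOS WT LN cells. In the LN these few cells held most of the transcript, 77.5% of Icos UMIs under ICOS FC and 66.4% under ICOS WT. The highest single cell had 40 and 23 Icos UMIs in ICOS FC and ICOS WT spleen, and 116 and 93 in ICOS FC and ICOS WT LN.

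**Figure D1:**
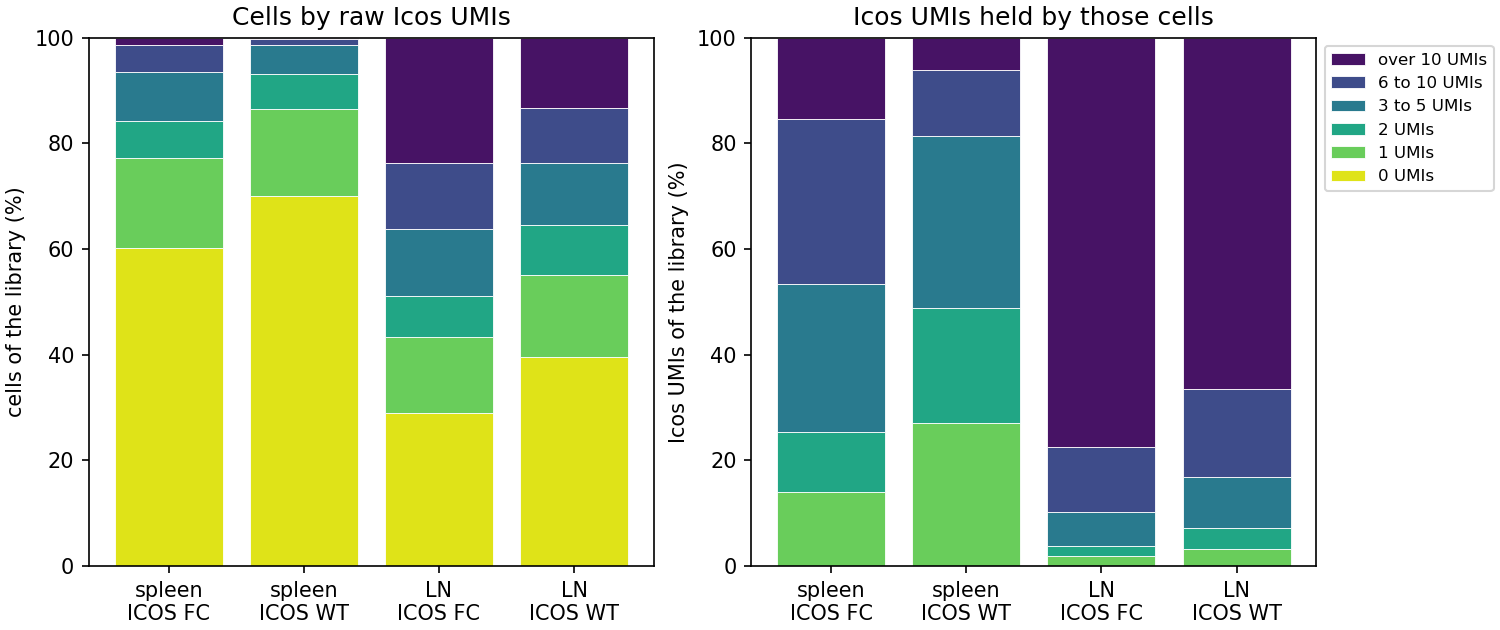
Stacked bars for the 4 libraries, with ICOS FC left of ICOS WT in each tissue. The left panel gives the percent of cells in 6 classes of raw Icos UMIs, and the right panel the percent of the library's Icos UMIs that each class held. Cells with over 10 UMIs are 23.6% of ICOS FC and 13.4% of ICOS WT LN cells and hold 77.5% and 66.4% of their Icos UMIs.

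Icos was next read by cluster. The clusters are those deposited with the tables, numbered separately in spleen and LN, so a number means different cells in the 2 tissues. They are named X-like here only where at least 3 of a class's markers, Icos not among them, stood within the 30 genes highest in that cluster, and these rebuilt names may differ from the study's. The clusters were made from these same cells, so differences in level between clusters are a description.

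Spleen Icos was concentrated in clusters 1 and 2. Cluster 1, led by Sostdc1, Lag3, Cd83 and Pdcd1 and left unnamed because effector and follicular Treg genes both led it, had 651 CPM under ICOS FC and 253 CPM under ICOS WT. Cluster 2 is effector Treg-like, led by Ccr2, S100a4, Lgals3 and the interleukin-33 receptor gene Il1rl1, and had 549 and 265 CPM. Clusters 1 and 2 made up 18.8% and 15.7% of the cells under ICOS FC and 17.1% and 17.4% under ICOS WT. They held most of the Icos UMIs, 47.0% and 32.6% under ICOS FC and 34.2% and 39.0% under ICOS WT.

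The next spleen clusters were smaller. Cluster 5, TCR-activated-like with Egr2, Egr3, Nr4a1 and Ccl4, had 260.4 CPM of Icos under ICOS FC and 128 CPM under ICOS WT. Cluster 6, interferon response-like with Ifit3 and Rsad2, had 206 CPM under ICOS FC, and 159.8 CPM in the 47 ICOS WT cells, which are under the minimum of 50 cells for a ratio. Both lay well below clusters 1 and 2 under ICOS FC.

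Icos was low in the remaining spleen clusters. The resting Treg-like cluster 0, with Bcl2 and Gpr83, had 56.6 CPM under ICOS FC and 31.2 CPM under ICOS WT, and the resting Treg-like cluster 3, with Sox4 and Satb1, had 76.3 and 46.1 CPM. Cluster 4, led by Pdlim4, Dapl1, Igfbp4 and the CD40 ligand gene Cd40lg, had 37.7 and 33.5 CPM. Cluster 4 is left unnamed because its Foxp3 level, 6.38 CPM under ICOS FC and 2.17 CPM under ICOS WT, goes against a Treg label. Its Ctla4 level was 5.77 and 3.86 CPM. No cluster was made of a cell type known to lack Icos, so the share of cells that free RNA alone would give an Icos UMI was not measured. The lowest thinned shares in the spleen were 7.98% in cluster 4 under ICOS FC and 6.59% in cluster 0 under ICOS WT.

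In order of level, each ICOS FC spleen cluster from 1, 2, 5, 6, 3 and 0 to 4 differed from the next by more than counting error. Under ICOS WT, with 6 clusters large enough, clusters 2 and 1 did not differ beyond it, and neither did clusters 4 and 0. The highest cluster was 17.3-fold above the lowest under ICOS FC and 8.50-fold under ICOS WT.

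LN Icos was highest in cluster 0, effector Treg-like with Ccr2, S100a4, Cxcr6, Il1rl1 and Klrg1, at 1589.7 CPM under ICOS FC and 1163 CPM under ICOS WT. After thinning, 88.3% and 74.8% of its cells had an Icos UMI. Cluster 4, unnamed and led by the metabolic and ribosome assembly genes Shmt1, Hk2, Srm and Mrto4, had 1377 and 919.7 CPM. Its cells were the deepest of the LN table, at a median of 12828 UMIs. Clusters 0 and 4 held 55.9% and 30.5% of the Icos UMIs under ICOS FC and 58.3% and 23.7% under ICOS WT.

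LN clusters 6, 7 and 2 were intermediate. Cluster 6, unnamed, was led by class II genes such as H2-Aa and by cell division genes, with a median of 1959 UMIs per cell, and had 908 CPM of Icos under ICOS FC and 793 CPM under ICOS WT. Cluster 7, in which Egr and Nr4a genes led together with the CD8 T and NK genes Cd8a, Cd8b1 and Klrd1, had 604 and 515 CPM. Cluster 2, unnamed and led by Gpm6b, Tbc1d4, Pdcd1 and Nrp1, had 558 and 319.8 CPM.

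The LN clusters lowest in Icos were the resting Treg-like clusters 1 and 3 and the interferon response-like cluster 5. Cluster 1, with Ly6c1, Bcl2 and Bach2, had 95.9 CPM under ICOS FC and 59.7 CPM under ICOS WT. Cluster 5, with Rsad2 and Oas2, had 95.7 and 64.7 CPM. Cluster 3, with Gbp2b, Bcl2 and Gpr83, had 227 and 67.3 CPM, so it stood well above clusters 1 and 5 in the library labelled ICOS FC and level with them in the library labelled ICOS WT.

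In order of level, ICOS FC clusters 7 and 2 did not differ beyond counting error, and neither did clusters 1 and 5. Under ICOS WT the 3 lowest, clusters 3, 5 and 1, could not be ordered. The highest LN cluster was 16.6-fold above the lowest under ICOS FC and 19.5-fold under ICOS WT. The interferon response-like cells were thus among the lowest in the LN and intermediate in the spleen, with 95.7 and 206 CPM under ICOS FC, values from tables that were clustered apart.

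**Figure D2:**
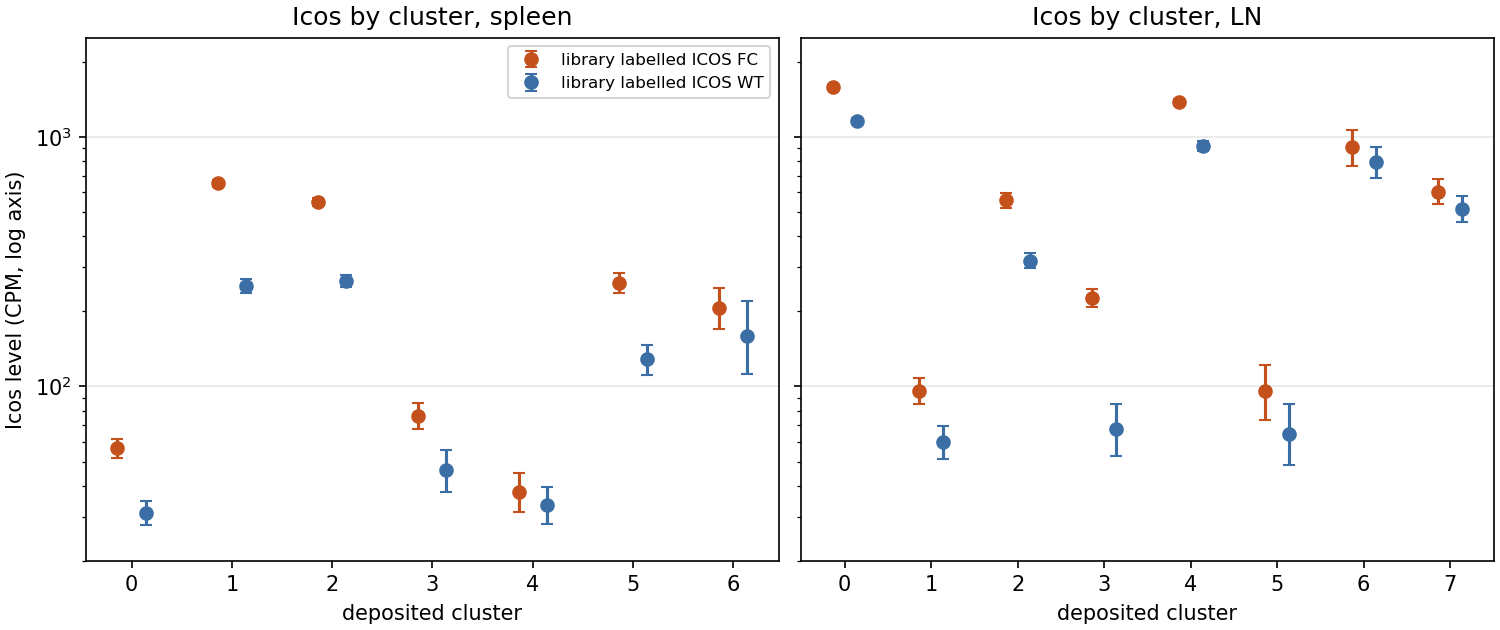
Icos level in CPM on a log axis for each deposited cluster, spleen on the left and LN on the right; orange points are the libraries labelled ICOS FC and blue points those labelled ICOS WT, with 95% counting intervals. Spleen clusters 1 and 2 and LN clusters 0 and 4 stand highest, and the ICOS FC point is above the ICOS WT point in every cluster drawn, with overlapping intervals in spleen clusters 4 and 6 and LN clusters 5, 6 and 7.

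The difference between the labels was then taken within each cluster. With at least 50 cells of each library, the ratio could be formed in 6 spleen and 8 LN clusters. The ratio lay above 1, and its interval with it, in 5 of 6 spleen clusters and 6 of 8 LN clusters, and it passed 1.5-fold in 5 and 3 of them. The median log2 ratio over clusters was 0.94 in the spleen and 0.57 in the LN.

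At the low end were spleen cluster 4 and LN clusters 6 and 7. Spleen cluster 4 had a log2 ratio of 0.17 [-0.19, 0.53], against 0.73 to 1.37 in the other 5 spleen clusters. LN cluster 6 had 0.20 [-0.12, 0.51] and LN cluster 7 had 0.23 [-0.01, 0.47]. LN cluster 7 had 28.7 and 45.7 CPM of Foxp3 under ICOS FC and ICOS WT. LN cluster 6 had the highest Foxp3 of any cluster, at 162 and 133 CPM. Spleen cluster 4 had the lowest Foxp3 of any cluster, at 6.38 and 2.17 CPM in the same order. LN cluster 4, with a log2 ratio of 0.58, had 36.4 and 32.4 CPM of Foxp3. Spleen cluster 5, with a log2 ratio of 1.02, had 35.8 and 49.2 CPM of it. The part of Foxp3 in these ratios was not tested. After thinning, the share of cells with Icos was 7.98% and 7.22% in spleen cluster 4 and 51.8% and 51.5% in LN cluster 7, ICOS FC before ICOS WT, and the intervals overlapped in both clusters. LN cluster 6 is the shallowest cluster, and its place at the low end rests on all its cells: in the 36 ICOS FC and 51 ICOS WT cells that reached 2000 UMIs, the thinned log2 ratio was 0.72 [0.21, 1.22], with Icos in 50% and 47.1% of them.

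At the high end was LN cluster 3, where Icos was 3.37-fold higher under ICOS FC (log2 1.75 [1.40, 2.13]). One ICOS FC cell held 59 of its 560 Icos UMIs. The thinned share does not weigh cells by their content, and it was 22.3% [17.7, 27.6] under ICOS FC and 10.9% [6.11, 17.7] under ICOS WT. In the spleen the largest ratio was in cluster 1, at 2.58-fold (1.37 [1.27, 1.47]), with thinned shares of 59.9% and 32.0%.

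In the LN the clusters with most Icos had some of the smaller ratios, 1.37-fold in cluster 0 (0.45 [0.40, 0.50]) and 1.497-fold in cluster 4 (0.58 [0.51, 0.66]). Their differences in level, 427 and 457 CPM, were nevertheless the largest of the LN. Cluster 2 was at 1.74-fold (0.80 [0.66, 0.94]), cluster 1 at 1.60-fold (0.68 [0.40, 0.97]) and cluster 5 at 1.48-fold (0.56 [0.02, 1.12]).

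**Figure D3:**
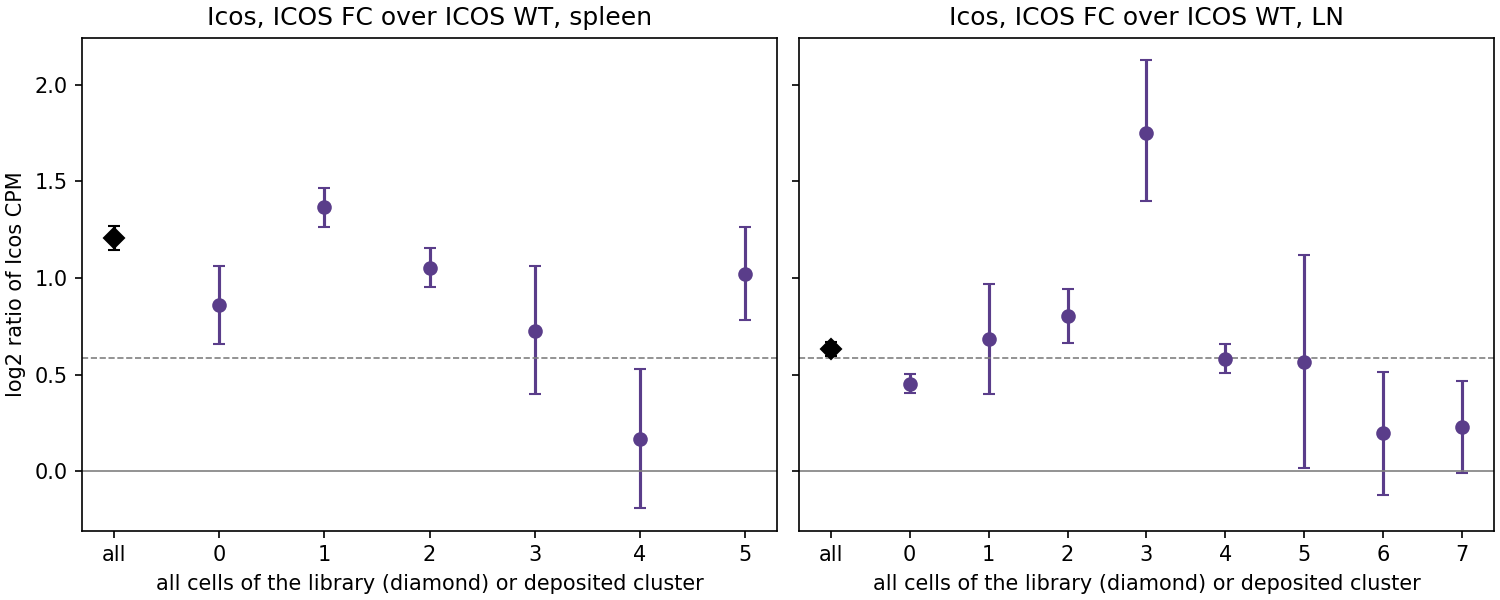
Log2 ratio of Icos CPM, ICOS FC over ICOS WT, for all cells of each tissue (black diamonds) and for each cluster with at least 50 cells of each library (purple), with 95% counting intervals; the solid line marks equality and the dashed line 1.5-fold. Spleen cluster 4 (0.17) and LN clusters 6 (0.20) and 7 (0.23) reach equality, and LN cluster 3 is highest at 1.75.

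The difference between libraries lay mainly within clusters rather than in the share of the library's UMIs that each cluster held. These cluster shares depend on both the number of cells and their depth. Of the 146 CPM between the spleen libraries, 91.7% was difference within clusters and 8.26% came from cluster shares. Of the 329 CPM between the LN libraries, 83.9% was within clusters and 16.1% came from shares. Spleen clusters 1 and 2 carried 50.2% and 33.8% of the difference within clusters, and LN clusters 0 and 4 carried 48.4% and 29.7%.

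The ratio was also formed in cells with and without a Foxp3 UMI. In spleen cells with one, Icos had 345 CPM under ICOS FC and 125 CPM under ICOS WT (log2 1.47 [1.35, 1.59]), and in cells without one 230.3 and 108 CPM (1.09 [1.02, 1.16]). The 2 spleen intervals did not overlap. In the LN the values were 1109 and 702 CPM with a Foxp3 UMI (0.66 [0.61, 0.71]) and 784 and 529 CPM without (0.57 [0.52, 0.62]). Foxp3 is a sparse transcript, with 53.2 to 72.2 CPM in the 4 libraries, and a cell without a UMI may still express it.

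By the deposited phase of the cell cycle, which is a call from gene scores, Icos in the spleen was highest in cells called G2M. Those cells had 364 CPM under ICOS FC and 176 CPM under ICOS WT, while cells called G1 had 250.4 and 108 CPM and cells called S had 249 and 107 CPM. The log2 ratio between labels was similar in G1, S and G2M spleen cells, at 1.21, 1.22 and 1.05. In the LN it was 0.72 [0.67, 0.76] in G1, 0.45 [0.39, 0.52] in S and 0.24 [0.10, 0.40] in G2M cells, where levels were 990 CPM in 87 ICOS FC cells and 835 CPM in 70 ICOS WT cells. These G2M cells were unlike in depth, with a median of 9326 UMIs under ICOS FC and 3958 under ICOS WT, and the part of depth in the smaller ratio was not tested.

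No other receptor or ligand gene of the family was higher under ICOS FC by 1.5-fold. Short of that, Ctla4 went the same way as Icos in both tissues. The ligand gene Pdcd1lg2 did so in the spleen (log2 0.29 [0.13, 0.46]), with 0.04 [-0.13, 0.22] in the LN. CD28, the constitutive costimulatory receptor, had 248 CPM of Cd28 in ICOS FC and 268 CPM in ICOS WT spleen, and 204 and 237 CPM in the LN (log2 -0.11 [-0.16, -0.07] and -0.22 [-0.29, -0.15]). Ctla4, the inhibitory receptor that competes with CD28 for its ligands, had 139 CPM in ICOS FC and 103 CPM in ICOS WT spleen, and 652 and 510.1 CPM in the LN (0.43 [0.36, 0.50] and 0.35 [0.31, 0.40]). Cd28 was thus slightly lower and Ctla4 moderately higher under ICOS FC, both short of 1.5-fold.

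Pdcd1, the gene of the inhibitory receptor PD-1, was lower under ICOS FC. It had 22.5 CPM in ICOS FC and 46.8 CPM in ICOS WT spleen (log2 -1.05 [-1.19, -0.92]), and 20.9 and 38.9 CPM in the LN (-0.90 [-1.09, -0.70]). By the rule of size 0.255% of all spleen genes and 1.05% of all LN genes were lower. Btla, another inhibitory receptor, had log2 ratios of -0.32 and -0.31 in spleen and LN, and Tnfrsf14, the gene of its ligand, stayed under 5 CPM in all 4 libraries.

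Icosl, the gene of the ICOS ligand, was near the floor in these T cells, with 62 and 68 UMIs in ICOS FC and ICOS WT spleen and 43 and 55 UMIs in ICOS FC and ICOS WT LN. The CD28 and CTLA-4 ligand genes Cd80 and Cd86 had at most 2.94 and 22.1 CPM in any library. Of the 10 family genes other than Icos, 5 in the spleen and 7 in the LN reached 20 CPM, and among them 0 were higher and 1 was lower by 1.5-fold in each tissue. Their median log2 ratio in the spleen was -0.11, beside -0.02 for all genes, and their median in the LN was -0.22, beside -0.03.

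Between tissues Ctla4 differed by a factor near that of Icos. It was 4.70-fold higher in LN than in spleen under ICOS FC (log2 2.23) and 4.96-fold higher under ICOS WT (2.31), while Cd28 had log2 ratios of -0.29 and -0.18. Cd274, which encodes PD-L1, was also past 2-fold, at 2.38-fold under ICOS FC and 3.27-fold under ICOS WT. The family thus had 2 members besides Icos that were higher in LN, of 6 measured under ICOS FC and 7 under ICOS WT, beside 5.9% and 5.33% of all genes.

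The genes beside Icos on chromosome 1 were read for the same comparison. Cd28 and Ctla4 lie just before Icos, with Ctla4 ending at 60915832 in the RefSeq annotation, and Pard3b and Nrp2 follow it. Of the 5 coding genes on each side, 5 in the spleen (Cd28, Ctla4, Ino80d, Ndufs1 and Eef1b2) reached the 20 CPM that the rule of size needs. In the LN 6 did, these and Raph1. Between labels 0 of them passed the rule, in either direction. Among all genes 0.588% were higher and 0.255% lower in the spleen, and 1.11% higher and 1.05% lower in the LN. A count of 0 in so few genes is near that background. Cyp20a1, Abi2, Pard3b and Nrp2 were below 20 CPM in all 4 libraries and could not pass. Pard3b, a cell polarity gene and the nearest after Icos, had 12 and 7 UMIs in ICOS FC and ICOS WT spleen and 39 and 5 UMIs in ICOS FC and ICOS WT LN.

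Genes that go with Icos cell by cell were sought within each library, after thinning to 2000 UMIs and with the effect of clusters taken out. There were 1572 spleen cells with and 4190 without an Icos UMI under ICOS FC, 819 and 4087 under ICOS WT, and in the LN 1067 and 940 under ICOS FC and 758 and 1070 under ICOS WT. Cells without Icos were weighted to the clusters of the cells with it. Genes with a UMI in at least 5% of thinned cells of every library, 3706 in all, were compared. Because an Icos UMI is often missed, cells without one include cells that express it, and all cells of a library share its preparation, so the values describe and are not tested.

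Of these genes, 15 (0.405%) were at least 25% higher in cells with Icos in all 4 libraries, each interval leaving out equality, and 1 (0.027%) was lower by the same factor. The 15 were Ctla4, Arl5a, Ptpn22, Tnfrsf4, Rilpl2, Ubl3, Srgn, Eea1, Glipr1, Maf, Smco4, Rasa1, Batf, Ptger4 and Malt1. The gene that was lower was Ly6c1, a surface marker among the leading genes of resting Treg-like clusters here. Among the 15 are transcription factors of activated T cells (Maf and Batf), the costimulatory receptor OX40 (Tnfrsf4), the antigen receptor signalling genes Malt1 and Ptpn22, and the prostaglandin E2 receptor gene Ptger4. Without weighting to clusters the counts were 259 and 45 genes.

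Maf encodes c-Maf, a transcription factor of effector and follicular T cells, and was the gene most like Icos. Likeness was the correlation over cells of the log of 1 plus UMIs, both genes centred on their cluster means, and genes were ordered by the library with the value nearest 0. Over 5762, 4906, 2007 and 1828 thinned cells, Maf had an r of 0.197 in ICOS FC and 0.192 in ICOS WT spleen, and 0.233 in ICOS FC and 0.272 in ICOS WT LN. These are weak correlations of sparse counts, and all 4 lie in a narrow band.

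In thinned spleen cells under ICOS FC, Maf averaged 0.817 UMIs with Icos and 0.483 UMIs in cluster-weighted cells without, a fold of 1.69 (log2 0.76 [0.61, 0.90]). Under ICOS WT the spleen values were 0.921 and 0.535 UMIs, a fold of 1.72 (0.78 [0.64, 0.92]). In the LN the folds were 1.70 (0.77 [0.51, 1.03]) under ICOS FC and 1.77 (0.82 [0.64, 1.01]) under ICOS WT. The intervals of the Maf fold thus overlapped in all 4 libraries, although the level of Icos differed between them.

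Read the other way, Icos was seen in 61.7% of thinned ICOS FC spleen cells with a Maf UMI and in 19.4% of those without. The shares were 37.4% and 12.1% in ICOS WT spleen, 78.8% and 37.0% in ICOS FC LN, and 67.6% and 26.4% in ICOS WT LN, with Maf before without Maf. Within single clusters the gap was smaller. In spleen cluster 1, 70.6% [66.5, 74.5] of cells with and 49.5% [45.2, 53.7] of cells without Maf had Icos under ICOS FC, and 39.6% [34.8, 44.5] and 24.7% [20.7, 29.1] under ICOS WT. In spleen cluster 2 the shares were 59.8% [54.6, 64.8] with and 50.9% [46.6, 55.3] without Maf under ICOS FC, where the intervals overlapped. Under ICOS WT they were 41.1% [35.9, 46.4] and 31.3% [27.3, 35.6].

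In LN cluster 0 the shares were 89.9% [86.8, 92.5] with and 85.0% [79.5, 89.5] without Maf under ICOS FC, and 80.1% [75.6, 84.1] and 63.0% [55.0, 70.4] under ICOS WT. In LN cluster 2 they were 50% and 55.2% under ICOS FC and 45.6% and 39.1% under ICOS WT, within each other's intervals. The Maf gap was therefore not found in every cluster.

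Maf did not share the difference of Icos between labels. It had 163 CPM in ICOS FC and 166 CPM in ICOS WT spleen, and 424 and 458 CPM in the LN (log2 -0.03 and -0.11). In spleen cluster 1 Maf stood at 469 CPM under ICOS FC and 514 CPM under ICOS WT, where Icos stood at 651 and 253 CPM. Between tissues it was higher in LN, at log2 ratios of 1.38 under ICOS FC and 1.46 under ICOS WT.

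Ctla4 had the largest LN correlations with Icos, 0.349 under ICOS FC and 0.302 under ICOS WT, and smaller ones in the spleen, 0.177 and 0.093. In LN cells with Icos it averaged 1.83 UMIs under ICOS FC and 1.53 UMIs under ICOS WT, against 0.789 and 0.588 UMIs in cluster-weighted cells without, folds of 2.32 (log2 1.21 [0.97, 1.47]) and 2.60 (1.38 [1.16, 1.61]). In the spleen the folds were 1.65 (0.72 [0.55, 0.89]) and 1.40 (0.48 [0.27, 0.69]). Both the r and the fold of Ctla4 were thus larger in LN than in spleen. For Maf the r was also larger in LN, while the folds, 1.69 to 1.77, were close in all 4 libraries. The levels of Icos, Ctla4 and Maf were all higher in LN than in spleen, and the part of level in these differences between tissues was not tested.

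Srgn encodes serglycin, a proteoglycan of secretory granules, and came second in likeness with r of 0.236 and 0.171 in ICOS FC and ICOS WT spleen and 0.204 and 0.219 in ICOS FC and ICOS WT LN. Its folds were 1.64 in ICOS FC and 1.56 in ICOS WT spleen, and 1.33 in ICOS FC and 1.43 in ICOS WT LN. The other genes among the 12 most like Icos were S100a6, Glrx, Rilpl2, Serinc3, Arl5a, Samsn1, Eea1, S100a11 and Ptpn22, with r from 0.068 to 0.180. S100a6 and S100a11 encode small calcium-binding proteins, Glrx a thiol reductase, Samsn1 an adaptor that restrains lymphocyte activation, and Eea1 an early endosome tether.

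At the other end all 12 genes were ribosomal protein genes: Rps19, Rpl13, Rps18, Rpl12, Rpl35a, Rps24, Rps29, Rps7, Rps20, Rpl32, Rpl21 and Rpl8. Their r ran from -0.214 to -0.099 and their folds from 0.823 to 0.925, so each was only slightly lower in cells with Icos. Rps19, the first of them, averaged 10.98 UMIs in ICOS FC spleen cells with Icos and 12.5 UMIs in those without, and 8.10 and 9.24 UMIs in ICOS FC LN cells. Thinned cells all sum to the same total, so the values of different genes in a cell are not independent, and the part of this in the ribosomal protein values was not tested.

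**Figure D4:**
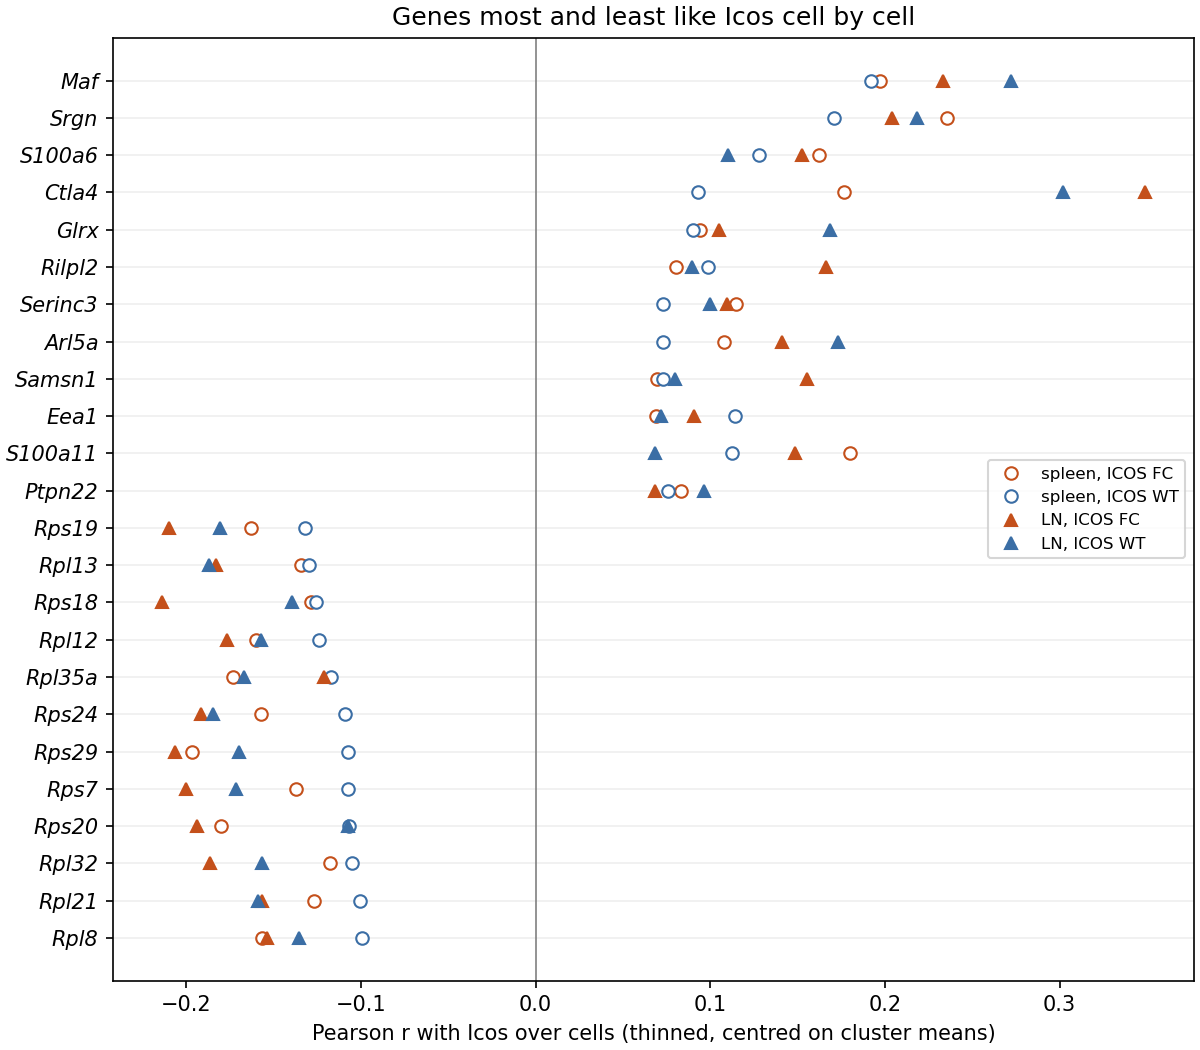
Pearson r with Icos over cells (thinned to 2000 UMIs, centred on cluster means) for the 12 genes most and the 12 least like Icos; open circles are spleen and filled triangles LN libraries, orange ICOS FC and blue ICOS WT. Maf lies between 0.192 and 0.272 in all 4 libraries, Ctla4 reaches 0.349 in the LN, and the genes below 0 all encode ribosomal proteins.

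By the number of Icos UMIs in a thinned cell (0, 1, 2, and 3 or more) and with no cluster weighting, Maf averaged 0.163, 0.584, 0.977 and 1.22 UMIs in ICOS FC spleen and 0.243, 0.635, 1.63 and 1.85 UMIs in ICOS WT spleen. Ctla4 averaged 0.448, 0.872, 1.36 and 2.66 UMIs in ICOS FC LN and 0.357, 0.855, 1.55 and 2.29 UMIs in ICOS WT LN. Both climbed over the classes. In every class, ICOS FC cells held less Maf on average than ICOS WT cells in both tissues. At 0 Icos UMIs the means were 0.163 and 0.243 UMIs in the spleen and 0.297 and 0.413 UMIs in the LN. At 3 or more Icos UMIs they were 1.22 and 1.85 UMIs in the spleen and 1.90 and 2.38 UMIs in the LN. The spleen means at 3 or more come from 367 ICOS FC and 82 ICOS WT cells. No intervals were formed for these means.

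**Figure D5:**
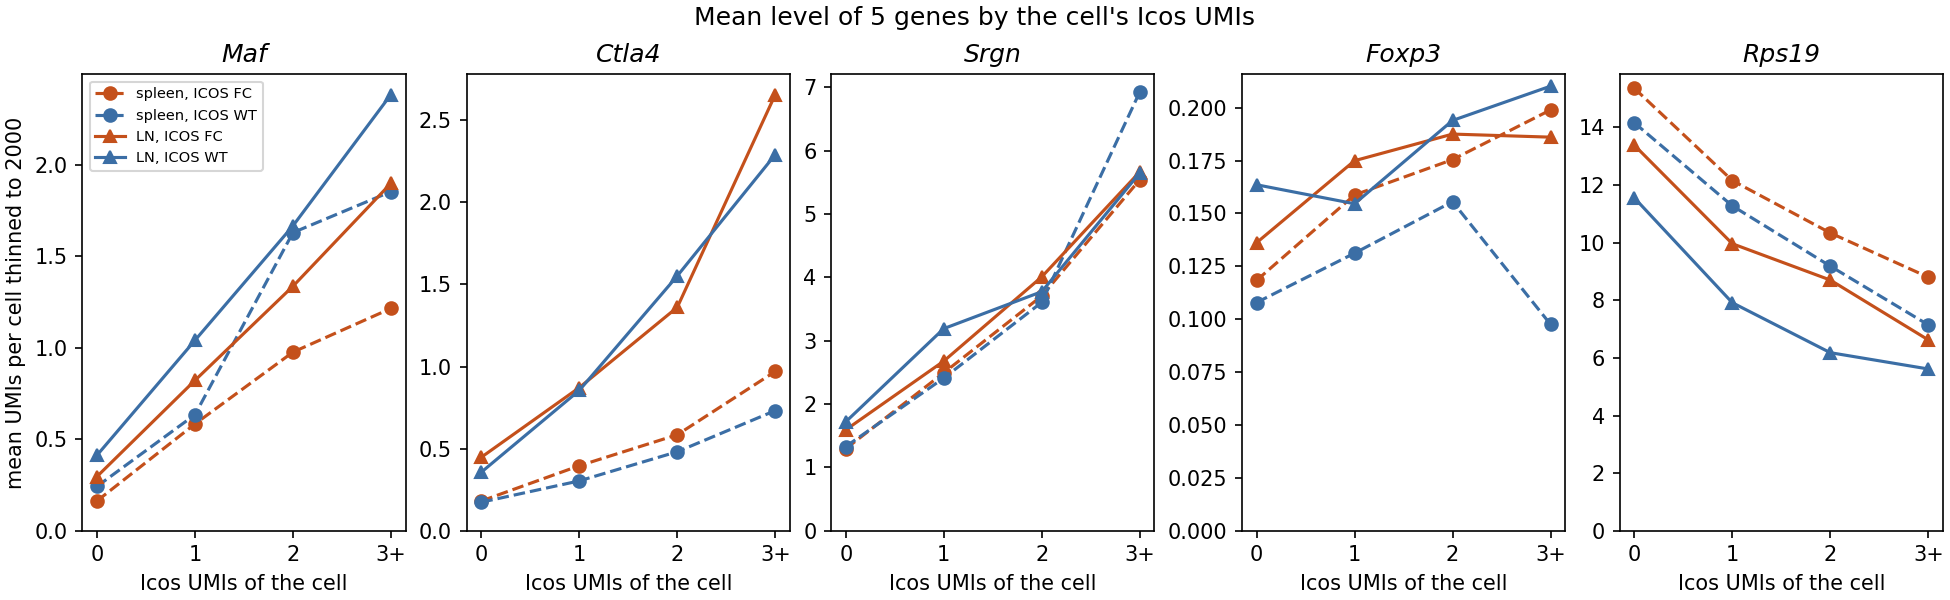
Mean UMIs per thinned cell (vertical axes, from 0) of Maf, Ctla4, Srgn, Foxp3 and Rps19 by the cell's Icos UMIs; dashed lines with circles are spleen, solid lines with triangles LN, orange ICOS FC and blue ICOS WT. Maf, Ctla4 and Srgn climb and Rps19 declines in all 4 libraries, while Foxp3 lies between 0.098 and 0.210 UMIs and climbs in ICOS FC spleen, at 0.118, 0.159, 0.175 and 0.199 UMIs over the classes.

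Within clusters, Foxp3 hardly went with Icos. Its r was 0.022 in ICOS FC and 0.009 in ICOS WT spleen, and 0.033 in ICOS FC and 0.027 in ICOS WT LN, and its folds were 1.11 in both spleen libraries and 1.06 in ICOS FC and 1.02 in ICOS WT LN, with every interval reaching equality. Over all clusters together, Icos was seen in 34.5% [30.9, 38.2] of thinned ICOS FC spleen cells with a Foxp3 UMI and in 26.3% [25.1, 27.6] of those without. The shares were 20% and 16.3% in ICOS WT spleen, 60.1% and 52.0% in ICOS FC LN, and 43.8% and 41.1% in ICOS WT LN, with Foxp3 before without, and the interval pairs overlapped in all but ICOS FC spleen. Cd28 had folds of 1.05 and 1.14 in ICOS FC and ICOS WT spleen, and 1.03 and 1.39 in ICOS FC and ICOS WT LN. With so few Foxp3 UMIs per cell, differences smaller than these intervals could not be seen.

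Hand-written gene lists were read for the same quantity, each beside all 3706 genes, of which 815 had a cluster-centred r with Icos above 0 in all 4 libraries and 281 an r below 0 in all 4. Of the effector Treg list 8 genes were measured, Maf, S100a6, S100a4, Lgals1, Tnfrsf1b, Batf, Tnfrsf9 and Nt5e, and all 8 had an r above 0 in all 4 libraries. Of these, Maf and Batf passed the rule. Batf, a transcription factor of effector T cells, had folds of 1.36 and 1.34 in ICOS FC and ICOS WT spleen and 1.92 and 1.35 in ICOS FC and ICOS WT LN. The median log2 fold of the 8 was 0.66 in ICOS FC and 0.52 in ICOS WT spleen, and 0.42 in ICOS FC and 0.38 in ICOS WT LN. All genes had medians of 0.05, 0.03, 0.04 and 0.05 in that order.

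Resting Treg genes lay on the other side. Of 11 measured, 0 passed, where 0.027% of all genes were lower by the rule. Of the 11, 8 had an r below 0 in all 4 libraries, beside 281 of all 3706 genes. Bcl2, which protects resting cells from death, had folds of 0.79 and 0.83 in ICOS FC and ICOS WT spleen and 0.66 and 0.65 in ICOS FC and ICOS WT LN. Tcf7, a transcription factor of naive and memory T cells, had 0.80, 0.92, 0.82 and 0.82 in the same order. Satb1, a chromatin organizer, did not follow, with log2 folds of 0.19, 0.10, 0.32 and 0.58. Il7r, the interleukin-7 receptor gene, had log2 folds of 0.24, -0.03, 0.50 and 0.31.

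Of 13 measured Treg identity genes, Ctla4 and Tnfrsf4 passed. Of the 13, 6 had an r above 0 in all 4 libraries and 1, Gpr83, an r below 0 in all 4. Among all 3706 genes these counts were 815 and 281. Gpr83 had folds of 0.65 and 0.90 in ICOS FC and ICOS WT spleen and 0.86 and 1.01 in ICOS FC and ICOS WT LN. Ikzf4 had 0.76, 0.82, 0.92 and 0.98 in the same order. Tnfrsf4 had folds of 1.44 and 1.36 in ICOS FC and ICOS WT spleen and 1.84 and 1.79 in ICOS FC and ICOS WT LN. Tnfrsf18, the gene of the related receptor GITR, had 1.31, 1.20, 1.62 and 1.20 in the same order and was short of 25% higher in both ICOS WT libraries. Of 9 measured genes of the PI3K, TBK1 and Akt pathway through which ICOS signals, 0 passed and 2 had an r above 0 in all 4 libraries. Among all 3706 genes 0.405% were higher and 0.027% lower by the rule, and 815 had an r above 0 in all 4 libraries. The counts for the pathway are thus near the background.

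The PI3K brakes and FoxO target list likewise had 0 of 11 past the rule, with 4 genes at an r above 0 and 4 below 0 in all 4 libraries. Of 9 measured genes of the Roquin, Regnase and mRNA decay list, 0 passed. With 0.405% of all genes higher and 0.027% lower by this rule, counts of 0 in these 2 lists are near the background. Zfp36, which encodes an RNA-binding protein that promotes mRNA decay, had folds of 1.17 and 1.22 in ICOS FC and ICOS WT spleen and 1.502 and 1.29 in ICOS FC and ICOS WT LN. Rc3h1, which encodes Roquin-1, had 1.10, 0.88, 1.47 and 1.32. Between the labels, 0 of 10 measured genes in the spleen and 0 of 9 in the LN passed 1.5-fold in the signalling list, and 0 of 10 and 0 of 11 in the decay list. Among all genes 0.588% were higher and 0.255% lower in the spleen, and 1.11% higher and 1.05% lower in the LN, so a count of 0 in lists this short is near the background.

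Interferon response, early TCR-induced, dissociation stress and proliferation genes had 0 of 7, 7, 10 and 4 measured members past the rule with Icos. Among markers of other cells, 0 of the 6 genes measured at this depth passed. These were Cd74 of the B cell list, Cst3 (myeloid), Xbp1 (plasma cell), Pecam1 (endothelium), and Tnfsf8 and Cd4 of the conventional CD4 T cell list. The CD8 T and NK list and the erythroid and platelet list had 0 measured members. Among all 3706 genes 0.405% were higher and 0.027% lower, so counts of 0 in lists this short are near the background.

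The libraries were as follows where they bear on Icos. All 14 Treg identity genes were detected in each library, summing to 3224 and 2839 CPM in ICOS FC and ICOS WT spleen and 6593 and 5342 CPM in the LN. B cell markers summed to 76.4 CPM in ICOS FC and 72.9 CPM in ICOS WT spleen, and to 198 CPM in ICOS FC and 164 CPM in ICOS WT LN. CD8 T and NK markers summed to 67.1 and 85.3 CPM in ICOS FC and ICOS WT spleen, and to 161 and 208 CPM in ICOS FC and ICOS WT LN. Ncr1, an NK cell gene, was at 0 in all but ICOS FC LN. Without spleen cluster 4 and LN clusters 6 and 7 the Icos log2 ratio between labels was 1.19 in the spleen and 0.65 in the LN. The ICOS FC and ICOS WT LN libraries shared 30 cell barcodes, 1.45% and 1.58% of their cells, and without barcodes found in another library the ratios stayed at 1.20 and 0.63. Doublets were not called here; leaving out the 5% of cells with most UMIs gave log2 ratios of 1.21 and 0.69.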

How the data were processed

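Single-cell 3' libraries (10x Genomics, version 3.1 chemistry) were made from sorted Treg cells, per the labels' protocols. Per the submitters' processing notes the tools were Seurat 3.0, R 3.6.1 and Cell Ranger 4.0.0, with the build GRCm38.p6 (mm10). The gene annotation and whether doublets had been removed were not given in the sources used here. No doublet caller was run. The values in the deposited tables, 1 per tissue, are natural logs: ln(1 + x), with x the UMIs of a gene per 10000 in that cell, as the values show. Each cell's count of UMIs and of genes, percent of mitochondrial counts, phase scores, cluster numbers and genotype word came from the deposited cell tables; the UMAP score of each cell was not used. Mouse ages and Cre drivers are not given.

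Each log value was turned back into UMIs with the cell's deposited count, and 100% came out whole within 0.001. Icos UMIs were summed per library or cluster and divided by all UMIs. Ratios have exact conditional Poisson intervals and shares exact binomial (Clopper-Pearson) intervals. Cells were thinned to 2000 UMIs with a fixed seed. Folds with Icos compare cells with and without an Icos UMI after weighting to clusters. Named were Icos, the 12 most and 12 least like genes, up to 4 genes per list and all measured CD28 family members, 5 neighbours on each side, and Foxp3. T cell receptor and immunoglobulin segments, mitochondrial, haemoglobin, sex-linked genes and Gm or Rik models stayed out of the ranking. Gene symbols in the files were matched to GENCODE M21 and RefSeq for position. The calculations were tested on simulated data with Python 3.11.15, numpy 2.4.6, scipy 1.17.1 and pandas 2.3.3; TMM factors came from edgeR. Icos, the gene lists and the rules were chosen with earlier results of these data known. Further settings were added after seeing the data: cells without shared barcodes, without early gene UMIs, without spleen cluster 4 and LN clusters 6 and 7, and, for the genes with Icos, cells with a Foxp3 UMI.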

Additional observations from a re-analysis of the deposited data

How the results depend on the processing

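Icos stayed higher under the ICOS FC label and higher in LN than spleen in all settings tried, and no Icos ratio changed direction. Between labels the spleen log2 ratio, 1.20, was 1.12 with cells averaged equally, 1.47 in cells with a Foxp3 UMI, 1.11 with clusters weighted equally and 0.98 in cells without early gene UMIs. The LN ratio, 0.63, was 0.68 with TMM factors, 0.69 with cells averaged equally and also without the 5% of cells with most UMIs, 0.72 in G1 cells, and under 1.5-fold at 0.48 with equal cluster weights and 0.40 without early gene UMIs. LN over spleen under ICOS FC and ICOS WT was 1.69 and 2.24 without ribosomal protein and mitochondrial genes in the total, 1.71 and 2.27 with TMM factors, 1.68 and 2.12 with cells averaged equally, and 1.67 and 2.15 after thinning. It was 1.79 and 2.31 without the 5% of cells with most UMIs, 1.99 and 2.62 under 5% mitochondrial counts, 1.68 and 2.49 with a Foxp3 UMI, and 1.66 and 2.24 without early gene UMIs. Without spleen cluster 4 and LN clusters 6 and 7 it was 1.71 and 2.25, and ICOS WT G1 cells gave 2.30. The difference in thinned shares, 10.6 percentage points in the spleen and 11.7 in the LN, was 8.17 in the spleen at 1000 UMIs and 15.9 in spleen cells with a Foxp3 UMI, and 8.35 in the LN with equal cluster weights.

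The list of genes with Icos depended on the settings. The 15 higher genes became 4 at 1000 UMIs (all among the 15), 259 without cluster weighting (14 shared), 9 in G1 cells (7 shared) and 8 in cells with a Foxp3 UMI (7 shared); at 3000 UMIs there were again 15 (6 shared), and for 2 or more Icos UMIs against 0 there were 19 (11 shared). The 1 lower gene, Ly6c1, was replaced by another at 1000 UMIs; the count became 0 at 3000 UMIs and 0 in cells with a Foxp3 UMI, 45 without cluster weighting, 2 in G1 cells and 4 for 2 or more Icos UMIs against 0. In the library nearest equality the log2 fold with Icos reversed for S100a11 at 1000 UMIs (-0.066) and, in cells with a Foxp3 UMI, for S100a6 (-0.091) and Serinc3 (-0.064). The cause was not tested. Depth limits what single cells show, since an Icos UMI is missed in many cells. No paired analysis was possible because each group is 1 library and no test was run. With 1 library per group, differences between labels and between mice cannot be told apart.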

Other observations

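Pard3b, the next measured coding gene after Icos on chromosome 1, was nearly absent from 3 libraries and less so in the library labelled ICOS FC of the LN. It had 39 UMIs, or 2.25 CPM, in ICOS FC LN and 5 UMIs, or 0.332 CPM, in ICOS WT LN, a log2 ratio of 2.76 [1.42, 4.46]. Its ICOS FC LN UMIs came from 29 cells, of which 28 also had an Icos UMI and 13 belonged to cluster 4, where Icos was at 1377 CPM. In ICOS WT LN, 1 of 4 cells with Pard3b had an Icos UMI. In the spleen, 5 of 12 ICOS FC cells and 2 of 7 ICOS WT cells with Pard3b had one. The gene was chosen after its values were seen. Without thinning, 71.0% of all ICOS FC LN cells and 91.2% of those in cluster 4 had an Icos UMI. Whether Pard3b went with Icos beyond cluster and depth was not tested.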
